A study of Mus musculus with 2 samples.

Results

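The cells described here are 95 progenitors of the mouse telencephalic vesicle, chosen by the transcripts that each of them held. The antihem is a strip of neuroepithelium in the ventral pallium (VP), at the boundary between pallium and subpallium, and it is known as a signalling centre that secretes the Wnt antagonist Sfrp2 together with ligands of the EGF and FGF families. It lies opposite the cortical hem, the dorsomedial source of Wnt and Bmp signals, and the 2 centres are thought to pattern the pallium between them. Its progenitors hold much Pax6, and the homeodomain factor Dbx1 marks VP progenitors that give rise to early-born neurons, among them Cajal-Retzius cells.

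The study asked where *Dbx1* and the delta-protocadherin *Pcdh8* are expressed together in the early telencephalon. Its 2 single cell libraries are the telencephalic vesicle of 3 WT C57BL/6J embryos of 2 litters (E12 in the labels, E11.5 to E12 in the methods), and septal explants of 8 E11.5 *PGKCre;Rosa26YFP* and 4 E12.5 *Dbx1Cre;Rosa26tdTomato* embryos. In the explants, Cre is active in all cells of the former and in *Dbx1*-expressing cells and their descendants in the latter. Embryos were pooled in each library, so that each group is 1 sample, cells are not replicates, and no test was made. Transcripts were counted as unique molecular identifiers (UMIs), which stand for single captured molecules, and the level of a gene in a group of cells is given in CPM, its UMIs per 1000000 UMIs of the group. Intervals are 95% intervals (exact Poisson for sums, exact Clopper-Pearson for shares of cells, exact conditional binomial for ratios) and cover counting error only.

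The telencephalic library held 14283 barcodes and 194821794 UMIs, and the 2 libraries together held 20110 barcodes, of which 1 sequence occurred in both. Of the 14283, 11498 barcodes had at least 2500 UMIs and a mitochondrial share under 6%. In 8539 of these the UMIs of 7 progenitor genes (A) exceeded those of 6 neuronal genes (N), and these are called A>N cells. The 95 members were selected on at least 3 UMIs of *Sfrp2* and 1 of *Pax6*, no UMI of *Emx1* (dorsal pallium), *Gsx2*, *Dlx2* (subpallium) or *Nkx2-1* (ventral subpallium), at most 1 UMI of the septal signals *Fgf8* and *Fgf17* together, and at most 1 of the hem signals *Wnt3a*, *Wnt2b* and *Rspo2* together. They made up 1.11% of A>N cells (0.901 to 1.36%). The median member held 13127 UMIs, and the 8444 other A>N cells held 11240. By depth, the share of members ran from 0.117% in the shallowest of 10 equal groups of A>N cells to 1.87% in the next to deepest group, so that the rule reaches few shallow cells.

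The genes of the rule describe the choice and are no result. *Sfrp2* stood at 3 UMIs in 33 members, at 4 in 22 and at 5 or more in 40, up to 22. *Sfrp2* lies on the plus strand of chromosome 3 of mm10, from 83766321 to 83774316, and *Pax6* on the plus strand of chromosome 2, from 105668900 to 105697364. Many more A>N cells lay just outside the rule than inside it, since 1161 cells failed only the *Sfrp2* condition, and 119 of these held 2 *Sfrp2* UMIs. Another 90 cells failed only for *Emx1*, 76 for the hem signals, 37 for *Gsx2* and 20 for *Pax6*.

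The members were not 1 population. *Foxd1*, a forkhead factor known from the diencephalon, was not part of the rule, and 33 members held at least 1 *Foxd1* UMI while 62 held none. The gene has 1 exon and sits at 98354242 to 98359305 of chromosome 13 (mm10, plus strand). The members with *Foxd1* held a median of 10895 UMIs and those without it 15140. Deep cells show more transcripts, so that shares are given by range of UMIs. The part of depth in the split was not tested. Among members with 8000 to 12000 UMIs, *Foxd1* was seen in 15 of 26 (57.7%, 36.9 to 76.6%), where the share was 2.34% (0.486 to 6.70%) in *Emx1*+ dorsal pallial progenitors, 1.82% (0.595 to 4.21%) in *Gsx2*+ subpallial progenitors and 6.65% (5.72 to 7.69%) in all other A>N cells of the same depth. Among members with 12000 to 20000 UMIs it was seen in 4 of 20 (5.73 to 43.7%), against 0.694% (0.0176 to 3.81%) of the *Emx1*+ cells, 3.12% (1.16 to 6.68%) of the *Gsx2*+ cells and 9.46% (8.16 to 10.9%) of all other A>N cells. With 20000 UMIs or more it was seen in 9 of 35 (25.7%, with an upper bound of 43.3%), against 6.51% (3.61 to 10.7%) of the *Emx1*+ cells, 7.77% of the *Gsx2*+ cells and 11.9% (10.5 to 13.4%) of all other A>N cells. In these 2 deeper ranges the interval of the members overlaps that of all other A>N cells. Of 468 erythroid, endothelial and macrophage cells, which should lack these progenitor transcripts and show free RNA, 1.71% (0.741 to 3.34%) held a *Foxd1* UMI, at a median of 6053.5 UMIs per cell. They were chosen without regard to A and N, with medians of 1 and 0, so that some can also be among the other A>N cells. Both neighbouring classes were cut from the same A>N cells under the limits on hem and septal signals. The 534 *Emx1*+ cells held at least 1 UMI of *Emx1* and of *Pax6*, at most 2 of *Sfrp2* and none of *Gsx2*, *Dlx2* or *Nkx2-1*, and the 823 *Gsx2*+ cells at least 1 of *Gsx2* and none of *Emx1* or *Nkx2-1*.

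**Figure D1:**
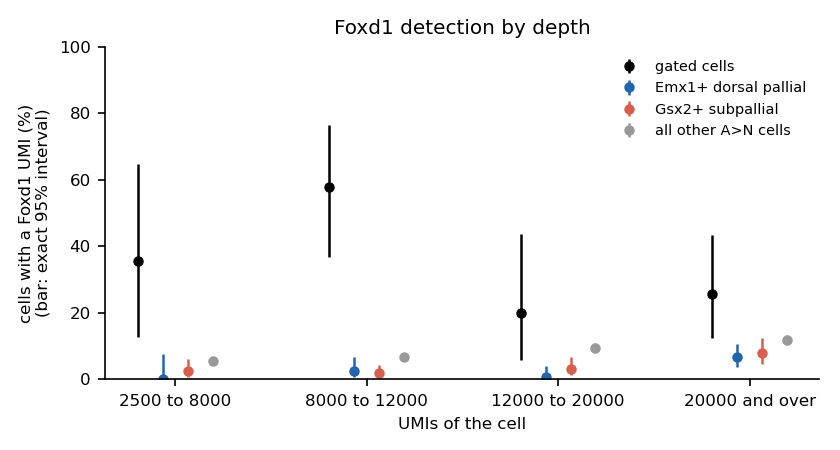
Share of cells with at least 1 *Foxd1* UMI (y axis, percent) in 4 ranges of UMIs per cell (x axis) for the gated cells, *Emx1*+ dorsal pallial, *Gsx2*+ subpallial and all other A>N cells; points are shares and bars exact 95% intervals. Between 8000 and 12000 UMIs the gated cells stand at 57.7%, above the 3 other groups.

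The transcriptomes of the members also divided in this way. For each member the 15 most similar A>N cells outside the gate were found from 2000 variable genes, without *Foxd1*, the genes of the rule and cell cycle genes. Of the neighbours of *Foxd1*-positive members 46.3% held *Foxd1*, and of the neighbours of *Foxd1*-zero members 11.8%, where 8.20% of all other A>N cells did. At most 5 of the 15 neighbours held *Foxd1* for 52 of the 62 *Foxd1*-zero members and for 9 of the 33 *Foxd1*-positive members. Hem-side cells (2 or more UMIs of the hem signals) were 37.0% of the neighbours of *Foxd1*-positive members and 10.9% of those of *Foxd1*-zero members, against 14.7% of all other A>N cells. *Gsx2*+ cells were 9.70% and 19.4%, against 9.75%. The label of antihem progenitors is therefore met in part at most, the cells are called gated cells or members below, and values are given with and without the *Foxd1*-positive members. This split was made after the values were seen.

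**Figure D2:**
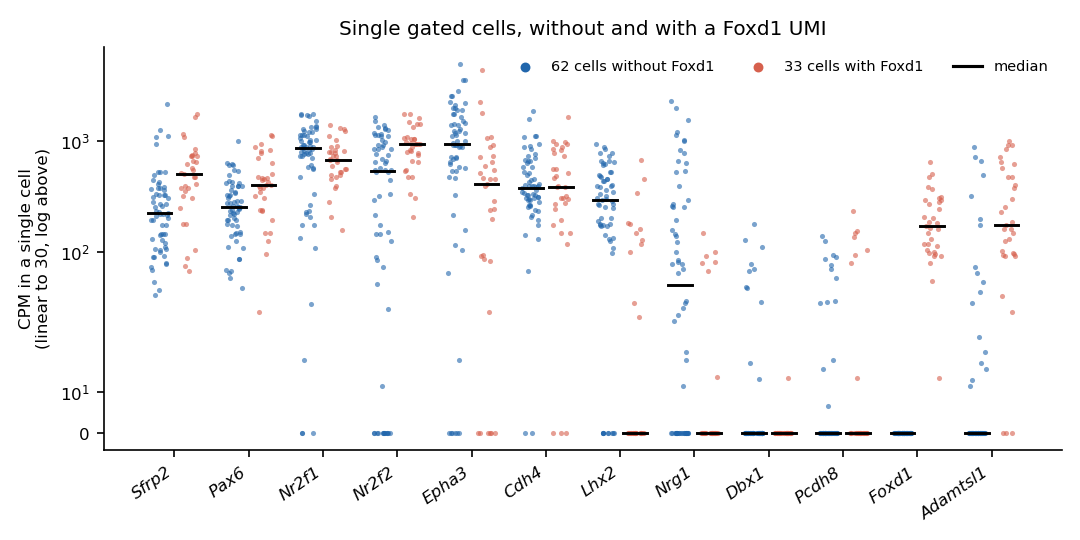
CPM of 12 genes in each gated cell (y axis, linear up to 30 and logarithmic above), for the 62 cells without a *Foxd1* UMI and the 33 with one; each point is a cell and black lines are medians. *Nr2f1* and *Cdh4* were present in nearly every cell of both groups, *Lhx2* and *Nrg1* mostly in the former, and *Adamtsl1* mostly in the latter.

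*Dbx1*, the marker of the label that the rule did not use, was found in 12 of the 95 members (12.6%, 6.70 to 21.0%), with 27 UMIs in all and at most 6 in 1 cell. Its gene has 4 exons, sits at 49631499 to 49636849 of chromosome 7 (mm10, minus strand) and overlaps no other annotated gene. Of the 12 cells, 11 were *Foxd1*-zero, where they made up 17.7% (9.20 to 29.5%), and 1 was *Foxd1*-positive. With 26 UMIs the level was 15.6 CPM (10.2 to 22.8) in *Foxd1*-zero members, and with 1 UMI it was 1.53 CPM (0.0389 to 8.55) in *Foxd1*-positive members, a ratio of 10.1 (1.66 to 415). Over all members *Dbx1* stood at 11.6 CPM (7.66 to 16.9), against 4.67 CPM (4.34 to 5.01) in other A>N cells, a ratio of 2.49 (1.63 to 3.65).

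The levels of *Dbx1* in the compared classes were all lower than in the members. They were 6.03 CPM (5.15 to 7.01) in *Nkx2-1*+ ventral cells, 4.64 CPM (3.55 to 5.96) in septal cells (2 or more UMIs of *Fgf8* and *Fgf17*), 4.03 CPM (3.02 to 5.25) in *Emx1*+ cells, 2.62 CPM (2.09 to 3.24) in hem-side cells and 1.87 CPM (1.26 to 2.67) in *Gsx2*+ cells. Neighbours in this order have overlapping intervals, and none of these 5 intervals overlaps that of the members. In the 468 free RNA reference cells *Dbx1* stood at 0.471 CPM (0.0571 to 1.70). After each cell was thinned to 7500 UMIs, *Dbx1* was left in 4 of 89 members (4.49%, 1.24 to 11.1%), in 2.65% of other A>N cells (2.28 to 3.06%) and in 1.11% of these reference cells (0.135 to 3.96%). These intervals overlap, and a difference in the share of *Dbx1*-positive cells was not detectable at this depth. The 6 members under 7500 UMIs and 1645 of the other A>N cells were left out of the thinned shares.

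A higher *Sfrp2* count did not go with more *Dbx1*. The 1161 cells that failed only the *Sfrp2* condition held *Dbx1* at 15 CPM (13.1 to 17.2), as high as the members, with a ratio of members to these cells of 0.775 (0.499 to 1.16). Within the same conditions, the level was 15.6 CPM (12.9 to 18.6) at 0 *Sfrp2* UMIs, 12.8 CPM (9.71 to 16.6) at 1, 17.6 CPM (12.4 to 24.4) at 2, 20.7 CPM (10.7 to 36.2) at 3, 13.9 CPM (5.58 to 28.6) at 4 and 6.45 CPM (2.79 to 12.7) at 5 or more. With *Foxd1*-zero cells on both sides, the ratio of members to cells that failed only for *Sfrp2* was 1.02 (0.650 to 1.54). The ratio of members to other A>N cells, 2.49 over summed UMIs, was 1.32 when each cell had equal weight and 1.36 at an *Sfrp2* minimum of 5. *Foxd1* was seen in 15.2% of the cells with 3 *Sfrp2* UMIs and in 55.0% of those with 5 or more.

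*Pcdh8*, which encodes a homophilic adhesion molecule of the delta-protocadherin family, was found in 22 of 95 members (23.2%, 15.1 to 32.9%) with 35 UMIs, at most 4 in 1 cell. The gene sits at 79766775 to 79771312 of chromosome 14 (mm10, minus strand) and overlaps Gm9748 on the other strand. Its level was 15.1 CPM (10.5 to 21.0) in members and 6.28 CPM (5.90 to 6.68) in other A>N cells, a ratio of 2.40 (1.66 to 3.36). Unlike *Dbx1*, *Pcdh8* was present on both sides of the split, at 13.2 CPM (8.25 to 19.9) in *Foxd1*-zero and 20 CPM (10.6 to 34.1) in *Foxd1*-positive members. *Gsx2*+ cells came next with 11.0 CPM (9.42 to 12.7), an interval that overlaps that of the members, then *Nkx2-1*+ with 6.71 CPM, septal with 6.32 CPM, hem-side with 3.14 CPM and *Emx1*+ cells with 2.91 CPM (2.07 to 3.97). Cells that failed only for *Sfrp2* held 11.8 CPM (10.1 to 13.7). After thinning, *Pcdh8* was left in 12.4% of members (6.33 to 21.0%) and in 4.69% of other A>N cells (4.20 to 5.22%), while 1.11% of the reference cells held it.

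**Figure D3:**
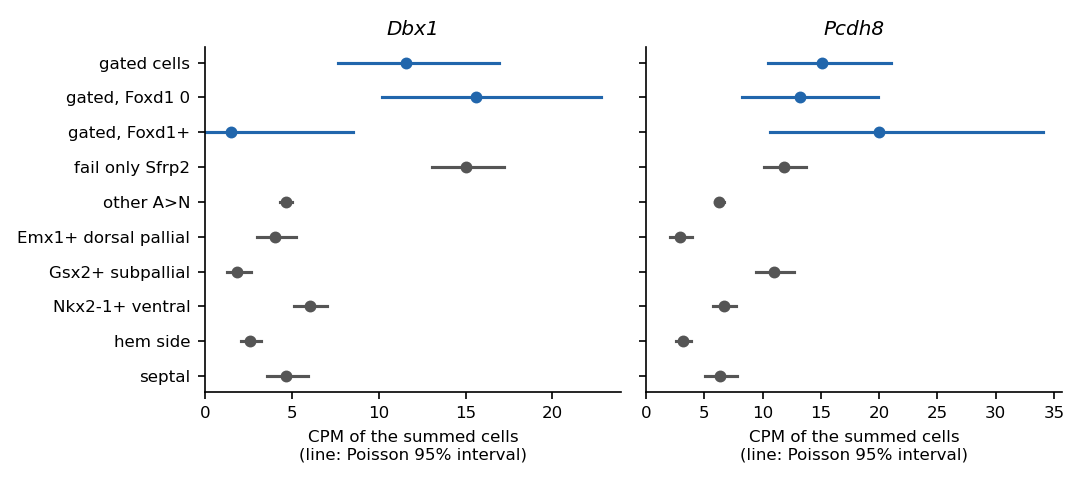
Levels of *Dbx1* (left) and *Pcdh8* (right) in the summed cells of each group of the telencephalic vesicle (x axis, CPM), with Poisson 95% intervals as lines; gated cells are blue. *Dbx1* is at 15.6 CPM in gated cells without *Foxd1* and at 1.53 CPM in those with it, while both groups hold *Pcdh8*.

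*Dbx1* and *Pcdh8* were found together in 6 members, which were deep, with a median of 48492.5 UMIs, and 5 of them were *Foxd1*-zero. *Pcdh8* was found in 6 of the 12 cells with *Dbx1* and in 16 of the 83 without, but the former held a median of 31069 UMIs and the latter 12355, and the part of depth in this difference was not tested. The 12 cells with *Dbx1* also held more *Nr2f1*, with 1140 CPM (1053 to 1232) against 665 CPM (627 to 704), more *Epha3*, with 2112 CPM (1993 to 2237) against 897 CPM (853 to 942), and more *Lhx2*, with 457 CPM (402 to 517) against 276 CPM (252 to 301). The deepest member, with 150035 UMIs, gave 422 of the 1169 *Epha3* UMIs of these 12 cells. Of the cells with *Dbx1* 11 of 12 were *Foxd1*-zero, and of those without 51 of 83. The part of the *Foxd1* split and of depth in these differences was not tested.

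By summed UMIs, the level of *Dbx1* was highest towards the neuronal end of the members. When the members were divided into 3 groups of 32, 32 and 31 cells by the ratio of neuronal to progenitor UMIs, *Dbx1* stood at 2.35 CPM (0.285 to 8.50), 7.56 CPM (3.04 to 15.6) and 32.9 CPM (19.5 to 52.0), and *Pcdh8* at 4.71 CPM (1.28 to 12), 13 CPM (6.70 to 22.6) and 34.7 CPM (20.9 to 54.2). The proneural factor *Neurog2* followed with 43.5, 57.3 and 232 CPM, *Eomes*, the marker of basal progenitors (BPs), with 5.88, 7.56 and 87.7 CPM, and the Notch ligand *Dll1* with 12.9, 29.2 and 60.3 CPM. The first and last intervals do not overlap for any of these 5 genes. By cells, *Dbx1* was in 1, 5 and 6 of the 3 groups, and 1 cell held 6 and another 5 of its 18 UMIs in the last. *Pcdh8* was in 4, 9 and 9 cells. *Neurog2* was in 8, 12 and 12 cells of the 3 groups, and 1 *Foxd1*-positive cell held 41 and another 29 of its 127 UMIs in the last. In *Foxd1*-zero members alone, which leave both out, it stood at 50.5 CPM (34.1 to 72.1), 40.1 CPM and 171 CPM (133 to 216). In these groups of 21, 21 and 20 cells, *Dbx1* ran from 3.37 CPM (0.408 to 12.2) over 8.90 to 44.6 CPM (26.4 to 70.5), while the intervals of *Pcdh8* overlapped, from 5.05 CPM (1.04 to 14.8) to 24.8 CPM (11.9 to 45.6).

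**Figure D4:**
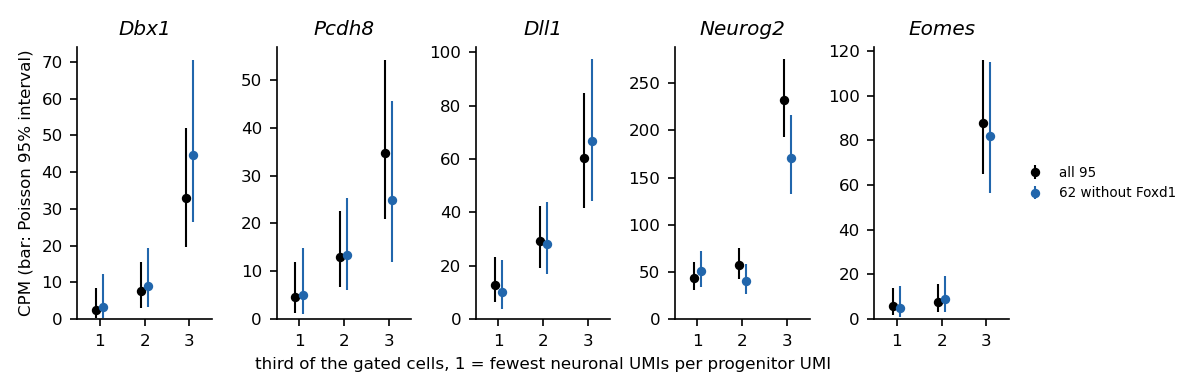
Levels of 5 genes (y axes, CPM, starting at 0) in 3 groups of the gated cells ordered by neuronal over progenitor UMIs (x axis, 3 = most neuronal), for all 95 cells and for the 62 without *Foxd1*; bars are Poisson 95% intervals. *Dbx1* goes from 2.35 to 32.9 CPM over all members, and *Eomes* stands apart in the last group.

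Across the transcriptome, 9050 genes had a mean of at least 10 CPM over members and other A>N cells. A gene was past the fold where its CPM ratio was at least 1.5 either way, which held for 245 genes higher in members (2.71%) and 332 lower (3.67%). With *Foxd1*-zero members alone, 288 genes were higher (3.19%) and 416 lower (4.61%) of 9029. With *Foxd1*-positive members alone, 599 were higher (6.61%) and 1096 lower (12.1%) of 9065. Of the 245 higher genes 178 were so with *Foxd1*-zero members and 147 with *Foxd1*-positive members, and 80 genes were higher with both, which is 27.8% of the former list and 13.4% of the latter.

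The genes that stood highest above other A>N cells, by the lower bound of the ratio, included adhesion and guidance molecules and several non-coding RNAs. Of the 12, 8 were protein coding. *Epha3*, an Eph receptor of axon and boundary guidance, held 2756 UMIs in 83 members and stood at 1186 CPM (1143 to 1232) against 357 CPM, a ratio of 3.32 (3.19 to 3.45). Cells that failed only for *Sfrp2* held 852 CPM (837 to 868), and the ratio of members to these was 1.39 (1.34 to 1.45). Single members ranged from 0 to 4970 CPM with a median of 716, so that members did not share 1 level. *Nlgn1*, a synaptic adhesion molecule, was at 522 against 147 CPM, the synaptic vesicle protein gene *Syt1* at 156 against 43.3 CPM, and the LIM-only factor *Lmo3* at 93.8 against 29.8 CPM, with a ratio of 3.14 (2.73 to 3.6). *Map7*, a microtubule-associated protein, was at 34.0 against 9.06 CPM and *Hs3st5*, a heparan sulfate sulfotransferase, at 20.7 against 4.97 CPM, where 58.3% of its UMIs came from 1 cell. *Flt1*, a VEGF receptor of endothelium, was at 23.7 against 5.12 CPM through 1 member alone, and *Adamtsl1* (91.3 against 23.0 CPM) mostly through the *Foxd1*-positive members, with 253 CPM against 28.1 CPM in *Foxd1*-zero ones.

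3 of the 4 non-coding RNAs lie beside the COUP-TF genes *Nr2f1* and *Nr2f2*, nuclear receptors that pattern the caudal and lateral telencephalon. B130024G19Rik, at 109 against 28.3 CPM, runs on the plus strand of chromosome 7 from 70364910 to 70489972 and overlaps 1826 bases of *Nr2f2* on the minus strand. *Gm29683*, at 149 against 28.5 CPM with a ratio of 5.22 (4.66 to 5.82), lies 14091 bases from *Nr2f2*, and *Gm38604*, at 106 against 33.6 CPM, 5804 bases from *Nr2f1*. *Nr2f2* itself was at 569 CPM (538 to 600) in members against 222 CPM in other A>N cells, and *Nr2f1* at 778 CPM (742 to 815) against 337 CPM. Against the cells that failed only for *Sfrp2*, the ratio was smaller for both, at 1.41, with lower bounds of 1.33 for *Nr2f2* and 1.34 for *Nr2f1*. *Nr2f1* was seen in 92 of 95 members (96.8%, 91.0 to 99.3%), and after thinning in 91.0% (83.1 to 96.0%) against 58.4% (57.3 to 59.6%) of other A>N cells. Both genes were high on each side of the split, with *Nr2f1* at 783 and 766 CPM and *Nr2f2* at 497 and 754 CPM in *Foxd1*-zero and *Foxd1*-positive members. Whether counting used the strand is not given in the sources used here, so reads of *Nr2f2* and B130024G19Rik in their overlap may not be told apart. *Gm29260*, the 4th of these RNAs, was at 80.1 against 25.4 CPM.

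Among the 12 genes lowest in members were ligands and agonists of the Wnt and Bmp pathways. *Lmx1a*, a factor of the hem and choroid plexus, was at 0.431 against 34.7 CPM, with a single UMI. *Wnt8b*, a Wnt of the medial pallium, was at 6.03 against 110 CPM, a ratio of 0.0547 (0.0299 to 0.0918), and the Wnt agonists *Rspo1* and *Rspo3* at 6.89 against 107 CPM and 39.2 against 248 CPM. *Bmp4* stood at 1.29 against 23.2 CPM, *Bmp6* at 2.15 against 37.2 CPM and *Sulf1*, an extracellular sulfatase, at 10.8 against 144 CPM. *Sfta3-ps*, a non-coding neighbour of *Nkx2-1*, was at 1.29 against 71.4 CPM and *Dlx1* at 1.29 against 21.5 CPM. *Trpm3*, *Glis3* and *Gm29478* completed the 12, with ratios of 0.0849, 0.113 and 0.153. The rule bars cells with hem signals, *Nkx2-1* or *Dlx2*, so that low values of genes of these domains follow the choice of cells and support nothing.

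**Figure D5:**
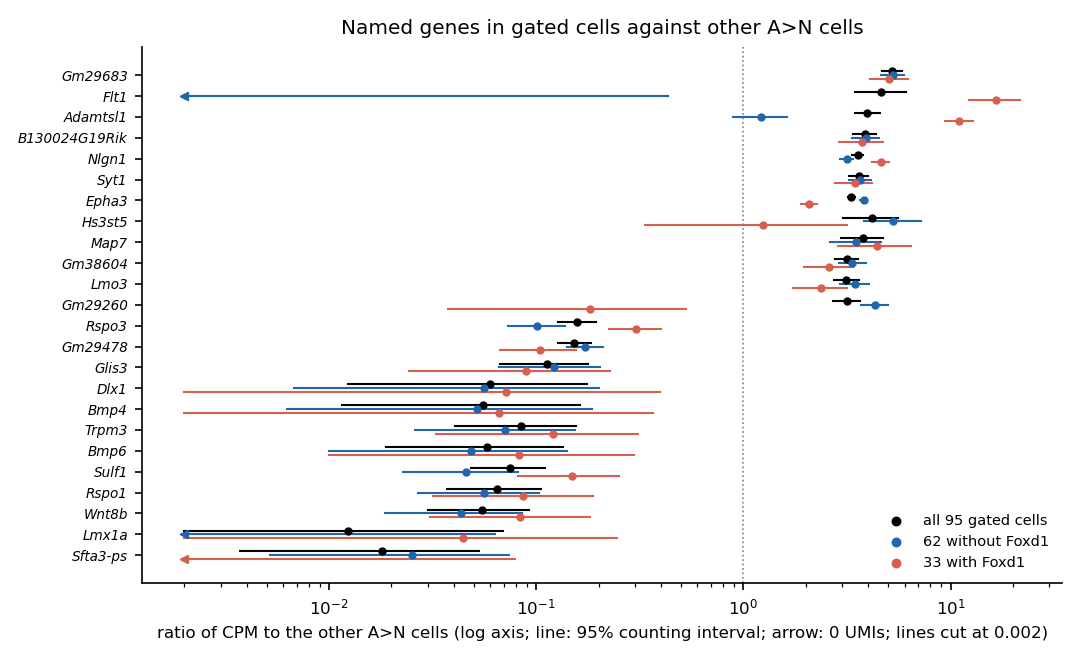
Ratio of CPM in gated cells to other A>N cells (x axis, logarithmic, with 95% counting intervals as lines) for the 12 highest and 12 lowest named genes, over all 95 gated cells, the 62 without *Foxd1* and the 33 with it. *Epha3*, *Lmo3* and the RNAs beside *Nr2f2* are above 1 in both subsets with intervals that do not reach 1, while for *Adamtsl1* and *Flt1* this holds only in cells with *Foxd1*, and for *Gm29260* and *Hs3st5* only in cells without it.

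Among antihem signals, the neuregulin *Nrg1*, a ligand of ErbB receptors, was past the fold. It stood at 196 CPM (178 to 215) in members against 87.7 CPM in other A>N cells, a ratio of 2.23 (2.03 to 2.45), but at 197 CPM (190 to 204) in the cells that failed only for *Sfrp2*. Of its 455 UMIs, 439 came from *Foxd1*-zero members, with 263 CPM (239 to 288) against 24.6 CPM (14 to 39.9) in *Foxd1*-positive members, and *Gsx2*+ cells held a similar level of 229 CPM (222 to 237). The EGF family ligand *Tgfa* was at 2.58 CPM (0.948 to 5.62) with 6 UMIs, all in *Foxd1*-zero members, against 1.06 CPM (0.910 to 1.23). *Fgf7* had 1 UMI in all members. Depth sets a floor of 3 counts, or 1.29 CPM, in the members. *Tgfa* lay above this floor, with an interval that reaches below it, and *Fgf7* lay under it. The list's 5 measured genes outside the rule are *Nrg1*, *Tgfa*, *Fgf7*, the neuregulin *Nrg3* and the factor *Dbx1*. Of these, 2 reached the mean of 10 CPM and 1 was past the fold.

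Among factors of pallial patterning, 6 of 13 genes tested were higher and 1 was lower. Their median ratio was 1.21 where that of all genes tested was 1. Beside the COUP-TF genes, *Neurog2* (93.4 against 46.2 CPM) and *Neurog1* (23.7 against 11.6 CPM) were higher, and *Dmrta1* (25 against 16.4 CPM) and *Tfap2c* (57.7 against 38.0 CPM) lay just past the fold. *Dmrt3*, a factor of the dorsomedial pallium, was lower with 12.1 against 38.9 CPM. *Lhx2*, a selector of cortical identity, was at 319 against 281 CPM over all members but at 382 CPM (353 to 413) in *Foxd1*-zero and 158 CPM (129 to 192) in *Foxd1*-positive members. Among subpallial factors none of 5 genes tested was higher and 4 were lower, among them *Olig2* (11.2 against 38.9 CPM) and *Sp8* (3.01 against 28.6 CPM). *Sp8* was not confined to the subpallium here, with 46.4 CPM in *Emx1*+ dorsal pallial cells. The rule bars *Gsx2*, *Dlx2* and *Nkx2-1*, so that low levels of subpallial factors follow the choice of cells. Among 11 genes of neurogenesis tested, *Neurog1*, *Neurog2* and *Eomes* (25.8 against 11.9 CPM, in 21 members) were higher and none was lower. With *Foxd1*-zero members alone 3 of 11 were higher and *Cdkn1c*, a cell cycle inhibitor, was lower, while with *Foxd1*-positive members alone 9 of 12 were higher, among them *Cdkn1c*, *Btg2*, *Gadd45g* and *Insm1*, and *Nr4a2* was lower. For some of these genes, few cells carry the summed levels of the *Foxd1*-positive members. This does not hold for *Btg2*, which was in 22 of the 33, at 121 CPM summed and 111 CPM as a mean over cells. *Neurog2* was in 8 of these 33 cells (24.2%), where 1 cell held 41 and another 29 of its 91 UMIs, and in 24 of the 62 *Foxd1*-zero cells (38.7%). *Eomes* was in 5 of the 33, with 72.2% of its UMIs in 1 cell, and *Cdkn1c* stood at 373 CPM over summed UMIs but at 194 CPM as a mean over cells.

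In the Wnt pathway, 3 of 20 genes tested were higher and 6 lower, with a median ratio of 0.989. The feedback targets *Axin2* (13.3 against 36.7 CPM) and *Nkd1* (11.2 against 20.8 CPM) were lower, with *Sp5* at 2.58 against 14.7 CPM under the filter. The rule bars cells with hem signals, and the other A>N cells include the 1239 hem-side cells. *Axin2* was past the fold also against *Emx1*+ cells but not against *Gsx2*+ cells, and *Nkd1* against neither. The ligand *Wnt7b* (112 against 61.0 CPM), the receptor *Fzd7* (19.4 against 8.08 CPM) and *Dkk3* (14.2 against 7.46 CPM) were higher, with *Wnt7b* at 203 CPM in *Foxd1*-positive and 76.6 CPM, not past the fold, in *Foxd1*-zero members. The second secreted Wnt antagonist, *Sfrp1*, was at 247 against 180 CPM in all members. It was past the fold in opposite directions in their 2 parts, at 316 CPM (290 to 344) in *Foxd1*-zero and 70.6 CPM (51.7 to 94.2) in *Foxd1*-positive members, and stood at 254 CPM (246 to 262) in the cells that failed only for *Sfrp2*. Of 10 genes tested among EGF and FGF receptors and feedback genes, 6 were lower, among them the feedback inhibitors *Spry1* (7.75 against 40.6 CPM), *Spry2* (4.31 against 15.7 CPM) and *Dusp6* (10.3 against 28.4 CPM), and the receptor *Fgfr3* (65.4 against 31.9 CPM) was the 1 higher gene. Members were chosen without septal Fgf ligands, and the other A>N cells include those that hold them. The receptor *Erbb4* was lower over all members (143 against 253 CPM), with 53.8 CPM in *Foxd1*-zero and 373 CPM in *Foxd1*-positive members.

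In the Notch pathway, the ligand *Jag1* was higher (27.1 against 17.5 CPM) and the receptor *Notch2* lower (34.9 against 52.7 CPM) of 12 genes tested, and the median ratio was 1.15. Among delta-protocadherins, 3 of 8 genes tested were higher, *Pcdh8*, *Pcdh17* (68.9 against 30.1 CPM) and *Pcdh9* (449 against 270 CPM), and 2 lower, *Pcdh7* (56.8 against 87.0 CPM) and *Pcdh11x* (21.5 against 33.7 CPM). *Pcdh9* was the most abundant of them and stood at 585 CPM in *Foxd1*-zero and 101 CPM in *Foxd1*-positive members. With *Foxd1*-zero members alone 4 of 7 were higher, *Pcdh9*, *Pcdh10*, *Pcdh17* and *Pcdh19*, and 2 lower. With *Foxd1*-positive members alone *Pcdh8* and *Pcdh17* of 8 were higher, and *Pcdh9*, *Pcdh10*, *Pcdh11x* and *Pcdh19* were lower. Among classical cadherins, which mediate calcium-dependent adhesion, *Cdh4* (526 against 201 CPM), *Cdh6* (235 against 131 CPM) and *Cdh8* (67.2 against 41.9 CPM) were higher and *Cdh11* (ratio 0.637) lower, of 8 tested. The same 4 genes were past the fold with *Foxd1*-zero members alone. With *Foxd1*-positive members alone *Cdh4*, *Cdh13* and *Cdh20* of 9 were higher, and *Cdh8* (16.9 CPM) and *Cdh10* were lower. *Cdh4* had a ratio of 1.71 (1.60 to 1.82) to the cells that failed only for *Sfrp2*, and was seen in 90 of 95 members, at 564 CPM in *Foxd1*-zero and 430 CPM in *Foxd1*-positive members. Of 13 Eph receptors and ephrins tested, *Epha3* and *Epha5* (100 against 56.2 CPM) were higher and *Ephb1* (33.6 against 139 CPM) lower. Radial glia genes outside the rule gave 2 of 12 higher, *Ptprz1* (842 against 378 CPM) and *Ednrb*, and none lower. Against *Emx1*+ cells 4 of 13 were higher and none lower, and against *Gsx2*+ cells none of 12 was past the fold. Of 3 retinoid genes tested none was past the fold over all members. *Crabp1* was lower with *Foxd1*-zero members alone (9.57 CPM). It was higher with *Foxd1*-positive members alone (135 CPM, in 4 of 33 cells), as was *Rarb*. None of 43 S phase genes and none of 54 G2 and M phase genes was past the fold, with median ratios of 1.02 and 1.03.

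Of 10 lists of markers of other cell types, 7 had a lower summed level in members than in other A>N cells, and those of endothelium, pallial neurons and Cajal-Retzius cells had a higher one. The summed level of 6 endothelial markers was 71.0 CPM against 19.4 CPM in other A>N cells, led by *Flt1*, and in *Foxd1*-zero members it was 2.39 CPM. All 55 UMIs of *Flt1* came from 1 *Foxd1*-positive member with 61661 UMIs, which held all 6 endothelial markers and 161 of their UMIs. Erythroid genes summed to 1750 CPM against 7913 CPM with all of the 7 tested lower, led by *Hbb-y*. The other A>N cells were not cleared of blood or vascular cells, and the part of such cells in these sums was not tested. Macrophage markers summed to 5.17 CPM against 32.7 CPM with *C1qa*, *C1qb*, *C1qc* and *Tyrobp* at 0, mesenchyme markers to 51.7 CPM against 140 CPM, led by *Col3a1*, and hem and choroid markers outside the rule to 46.9 CPM against 354 CPM, led by *Rspo3*. Diencephalic markers summed to 239 CPM against 343 CPM, led by *Tcf7l2*, with *Olig3*, *Gbx2*, *Sim1* and *Wnt3* at 0, and optic vesicle markers to 6.89 CPM against 7.64 CPM with *Six6* and *Hmx1* at 0. The 7 pallial neuron genes summed to 19.8 CPM against 11.1 CPM, and to 39.9 CPM in *Foxd1*-positive members, with *Neurod2*, *Neurod6* and *Slc17a7* at 0. Of 6 genes of Cajal-Retzius cells (62.4 against 55.3 CPM), *Ebf3* was higher and *Reln* lower, and their sum was 130 CPM in *Foxd1*-positive and 35.9 CPM in *Foxd1*-zero members. The 5 genes of GABAergic neurons summed to 8.61 CPM against 19.4 CPM, with *Lhx6* at 0, and none of them reached the mean of 10 CPM.

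Without the member with endothelial genes, 32 *Foxd1*-positive cells stood above other A>N cells most in *Adamtsl1* (256 against 23.0 CPM, in 29 cells), *Foxd1* itself, which chose them (178 against 17.3 CPM), *Gdf10*, a ligand of the TGF-beta family (20.3 against 1.24 CPM, in 7 cells), and *Clvs1* (49.2 against 5.99 CPM, in 4 cells). *Nlgn1* (665 against 147 CPM), *Dlk1* (583 against 144 CPM) and *Gm29683* (124 against 28.5 CPM) were also among their 12 highest genes, in 25 cells or more. *Foxb1*, another forkhead factor of the diencephalon, was in 9 of the 33 *Foxd1*-positive and 3 of the 62 *Foxd1*-zero members. *Otx2*, a factor of forebrain and midbrain, was at 86.0 CPM (64.9 to 112) in *Foxd1*-positive and 27.5 CPM (20.1 to 36.7) in *Foxd1*-zero members, and *Wls*, which is needed to secrete Wnt proteins, at 137 CPM (110 to 168) and 18.5 CPM (12.6 to 26.3). High *Adamtsl1* and *Wls* also went with *Foxd1* outside the gate. *Adamtsl1* was at 181 CPM (156 to 208) in the 72 cells with *Foxd1* that failed only for *Sfrp2*, and at 115 CPM (110 to 120) in the 692 other A>N cells with *Foxd1* against 12.8 CPM in those without. *Wls* stood at 164 CPM (141 to 190), 183 CPM (177 to 190) and 81.2 CPM in the same 3 groups, and *Otx2* at 30.4 CPM (20.9 to 42.7), 82.4 CPM (78.1 to 87.0) and 127 CPM. *Six3os1*, a non-coding RNA beside the *Six3* gene, was at 112 CPM (87.8 to 141) in *Foxd1*-positive and 28.7 CPM (21.2 to 38.1) in *Foxd1*-zero members. Outside the gate it did not go with *Foxd1*, at 27.6 CPM (18.6 to 39.4) in the 72 cells. In other A>N cells it was at 68.2 CPM with *Foxd1* and 82.9 CPM without. The lowest of the 32 cells were *Lrrc4c*, with 0 UMIs against 73.1 CPM, *Sfta3-ps*, *Gm29478* and *Ano1* (3.39 against 69.2 CPM), and *Nfia*, a factor of gliogenesis, was at 81.4 against 554 CPM. As a description of the rule's own gene, the *Foxd1*-positive members held more *Sfrp2* than the *Foxd1*-zero members, 387 CPM (341 to 438) against 168 CPM (149 to 189). No name is given to them. Diencephalic markers summed to 328 CPM in *Foxd1*-positive and 204 CPM in *Foxd1*-zero members, against 343 CPM in other A>N cells, and their most abundant gene, *Tcf7l2*, was in 29 of the 33 cells with 224 CPM (189 to 264), against 213 CPM in other A>N cells. Optic vesicle markers summed to 18.4 CPM in *Foxd1*-positive and 2.39 CPM in *Foxd1*-zero members, against 7.64 CPM. Hem and choroid markers outside the rule summed to 93.6 CPM in *Foxd1*-positive and 28.7 CPM in *Foxd1*-zero members, against 354 CPM. Their leading gene, *Rspo3*, was at 75.2 and 25.1 CPM. Of the 76 cells that failed only for the hem signals, 56.6% held *Foxd1*.

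Mesenchyme markers moved with *Foxd1* in this library. They summed to 169 CPM in *Foxd1*-positive and 5.98 CPM in *Foxd1*-zero members, against 140 CPM in other A>N cells, and in the former *Col3a1*, *Foxc1* and *Twist1* of 5 genes tested were higher and *Lum* was lower. All 57 *Col3a1* UMIs of the members were in 4 *Foxd1*-positive cells, and 51 of them in 1 cell. Among other A>N cells, *Col3a1* was found in 62.7% (59.0 to 66.3%) of the 692 cells with *Foxd1* and in 4.80% (4.33 to 5.30%) of those without, at 384 and 9.75 CPM. The part of mesenchymal RNA or cells in the *Foxd1* split was not tested.

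Set against *Emx1*+ dorsal pallial progenitors, 474 of 8962 genes were higher in members (5.29%) and 331 lower (3.69%). The highest by rule were *Adamtsl1* (91.3 against 7.31 CPM), *Gm29683*, *Foxd1* (47.8 against 4.32 CPM), B130024G19Rik, *Six3os1* (52.1 against 5.89 CPM), *Mctp1* (82.2 against 10.4 CPM), *Dlk1*, an atypical Notch ligand (274 against 42.1 CPM), and *Zfp503* (47.8 against 6.34 CPM). With *Foxd1*-zero members alone, *Adamtsl1*, *Foxd1*, *Six3os1*, *Dlk1* and *Zfp503* were not among the 8 highest, and *Hs3st5*, *Gm30382*, *Plce1*, *Ednrb* and *Epha3* were. The lowest were *Wnt8b* (6.03 against 117 CPM), *Cntn5* (3.01 against 54 CPM), *Sp8* (3.01 against 46.4 CPM), E330013P04Rik, *Rspo1*, *Lrrn1* (35.3 against 234 CPM), *Prrx1* and *Mpped2* (65.4 against 299 CPM). *Nr2f2* differed most among pallial factors, with 569 against 104 CPM, while *Emx2* was lower with 77.5 against 192 CPM and *Neurog2* stood at 93.4 and 93.2 CPM. The choice of cells set this contrast in part, since the reference needed *Emx1* and the members were barred from it. Of 8 classical cadherins 4 were higher, *Cdh4*, *Cdh6*, *Cdh8* and *Cdh20*, and none lower.

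Set against *Gsx2*+ subpallial progenitors, 279 of 8944 genes were higher in members (3.12%) and 259 lower (2.90%). *Neurog2* led with 93.4 against 9.30 CPM, a ratio of 10.0, followed by *Prmt8* (27.1 against 2.37 CPM), the early B-cell factors *Ebf3* (22.4 against 2.06 CPM) and *Ebf2* (40.0 against 4.49 CPM), *Gm29683*, *Zfp503*, the pallial factor *Dmrta2* (95.1 against 14.4 CPM) and *Foxd1*. With *Foxd1*-zero members alone, *Ebf3*, *Ebf2*, *Zfp503* and *Foxd1* were not among the 8 highest, and *Neurog1*, *Lmo3*, *Adamts18* and *Eomes* were. *Ebf3* stood at 12.6 CPM and *Ebf2* at 23.3 CPM in *Foxd1*-zero members, and 31 of 52 *Ebf3* and 54 of 93 *Ebf2* UMIs were in 5 *Foxd1*-positive cells each. *Dlx1* was lowest (1.29 against 54.3 CPM), then *Ano1* (12.1 against 113 CPM), *Gm26871*, *Ephb1* (33.6 against 240 CPM), *Apela*, *Sh3rf3*, *Nrxn3* (28.8 against 141 CPM) and *Cntn5*. Pallial factors were higher in 7 of 12 tested and lower in none, and subpallial factors lower in 4 of 4, in a contrast that the rule itself set by barring *Gsx2* and *Dlx2*. *Epha3* was at 1186 against 677 CPM, and *Nr2f1* at 778 against 357 CPM. *Lhx2* was at 319 and 318 CPM. Of 9 classical cadherins tested only *Cdh4* was higher, and *Cdh7* and *Cdh10* were lower.

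The same rule applied to the septal explants, which it was not made on, kept 25 of 3891 A>N cells (0.643%, 0.416 to 0.947%). *Sp8* was found in 15 of the 25 and in 54.8% of the other A>N cells of that library. *Dbx1* had 1 UMI (2.18 CPM, with 6.74 CPM in the other A>N cells of that library), *Pcdh8* had 5 UMIs (10.9 against 8.33 CPM), and *Nr2f1* had 6 UMIs in 2 cells, a ratio to the other A>N cells of that library of 4.06 (1.47 to 9.01), where 2.95% of these held it. *Nr2f2* was found in none of the 25 cells and in 1.66% of the others. *Neurog2*, higher in the telencephalic members, was lower here with 48 against 93.9 CPM, a ratio of 0.511 (0.32 to 0.774). Of the 12 highest genes named above 9 have a symbol in that library's gene table, none of the 9 reached the mean of 10 CPM, and *Epha3* had 1 UMI. Of the 12 lowest, 11 have one, 5 reached the mean of 10 CPM and 4 were past the fold, *Wnt8b*, *Rspo1*, *Rspo3* and *Sulf1*, the last with 2 UMIs in 1 cell. The rule bars cells with hem signals in this library too, so that low values of genes of the hem domain follow the choice of cells and support nothing. In that library 8.45% of 7542 genes were higher and 8.27% lower. Kits and processing differ, so that no level was compared between libraries.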

How the data were processed

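The authors deposited raw UMI counts per gene and barcode for both libraries, without normalisation. For the telencephalic vesicle they used a 10x Genomics 3′ v3.1 kit with about 20000 input cells and Cell Ranger 7.1.0, and for the septal explants a v2 kit with about 10000 and Cell Ranger 2.1.1. The versions and mm10 are from the submitters' processing notes. Cells of 2 libraries were never pooled. Whether intronic reads were counted is not given in the sources used here, and this bears on long genes such as *Epha3* and *Nlgn1*. From the counts, CPM of summed cells, ratios and intervals were computed here with Python 3.11.15, numpy 2.4.6 and scipy 1.17.1. Named genes are the 12 highest by the lower bound and the 12 lowest by the upper bound of the ratio's interval (8 each for the neighbouring classes), without genes of the rule, mitochondrial, ribosomal and sex-linked genes. The genes of 24 lists, with 346 genes, are described by list, and some of them, such as *Epha3* and *Wnt8b*, are also among the named genes. Some genes are not reported here and were left out of the lists and named genes. Thinning drew 7500 UMIs per cell, the largest multiple of 500 reached by 90% of members. Scrublet in scanpy 1.11.5 was given an expected doublet share of 9.20% and marked 5.96% of the filtered barcodes and 5 members, which were kept. Ratios were tested on simulated Poisson counts from the summed profile of the other A>N cells, without variation between cells. Such counts cannot show how the intervals behave where few cells carry a gene. Positions are from GENCODE vM21. The members and lists were chosen with earlier results of these data known, so that no pattern here is independent support.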

Additional observations from a re-analysis of the deposited data

Results flagged for a closer look

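The gene list of the telencephalic library holds an added LacZ sequence, which no comparison used. It had 11 UMIs in 9 cells of the library of WT embryos, above the 3 counts that a count of 0 allows. 1 of these UMIs lay in a gated cell and 10 in other A>N cells. No groups had enough samples to look for a sample far from the others.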

How the results depend on the processing

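The ratio of *Dbx1* in members to other A>N cells (2.49) stayed above 1 under all alternatives but 1, and that of *Pcdh8* (2.40) under all. The *Dbx1* ratio was 1.36 at an *Sfrp2* minimum of 5 and 1.32 with each cell at equal weight, both under its interval, and 0.329 in members with *Foxd1*, where 1 UMI was counted. The number of members was 214 at an *Sfrp2* minimum of 2, 40 at 5, 62 without *Foxd1* and 33 with it. The genes past the fold numbered 369 higher at an *Sfrp2* minimum of 5, 492 higher and 677 lower with cells thinned, 489 and 876 at a mean of at least 3 CPM, 118 and 123 at 30, 703 and 832 at a ratio limit midway between 1 and 1.5, 69 and 141 at a limit of 2, and 599 and 1096 in members with *Foxd1*. Lower thresholds take in more genes by construction, and the cause of the others was not tested. A mitochondrial limit of 3 MAD, removal of doublets, other cells weighted to the depth of members, and removal of the member with endothelial genes or of the 2 deepest members (12.8% of all UMIs) moved neither ratio out of its interval nor a count by over 1.5 times. The settings that split the members by *Foxd1* or leave out single members were chosen after seeing the data. Another planned choice of the other cells was not run. No paired analysis was possible because each group is 1 library. With 1 library, embryos, litters and sampling of cells cannot be told apart, and 27 *Dbx1* and 35 *Pcdh8* UMIs limit every statement on these genes.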
